A study of Homo sapiens with 2 samples.

Results

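Histone genes were read in RNA sequencing libraries of BT549, a human triple-negative breast cancer cell line. The cells overexpressed the kinase SIK1, a relative of AMPK, either in its wild-type form (WT) or as S435D, in which an aspartate takes the place of a serine. There was 1 library for each construct, and both constructs were carried by the same line. The vector, its promoter, whether the lines were clones or pools, and cells without a construct were not analysed here. The histone genes were taken by symbol, as the names beginning with HIST1H to HIST4H, H2AF, H1F or H3F. Of 108 such symbols 20 carried pseudogene endings and were left out, which left 88 of the 43337 genes in the table. They comprised 71 replication-dependent genes (the HIST symbols), 16 genes of replacement variants, and the antisense transcript H1FX-AS1, which shares the name but encodes no histone. By the GENCODE 29 annotation, 66 of the 71 replication-dependent genes are protein-coding and 5 are of pseudogene types.

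Histones package DNA into nucleosomes, each a core of H2A, H2B, H3 and H4 around which the DNA is wound, with a linker histone H1 at its entry and exit. The replication-dependent genes lie in clusters and supply the bulk of histone protein in S phase. Their mRNAs have no introns and, in canonical form, end in a conserved stem-loop that is bound by SLBP and not in a poly(A) tail. The replacement genes lie alone, usually contain introns, give polyadenylated mRNAs throughout the cell cycle and supply variants that are placed at promoters, heterochromatin or sites of DNA damage.

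The stem-loop is the sequence that sets the canonical histone mRNA apart, and it is printed for genes with many reads, for HIST1H3E with its single form and for the replacement gene H2AFX. Each line gives the DNA-sense sequence from the GENCODE 29 transcript (GRCh38), 5′ to 3′, with the 16 bases of the stem-loop in capitals and 5 bases on either side. A match was a stem of 6 base pairs, wobble pairs allowed, whose first side is GG, 3 pyrimidines and T and whose second side ends with CC, around a loop of 4 bases that begins with T.
HIST3H2A at chr1:228457369-228457384, minus strand: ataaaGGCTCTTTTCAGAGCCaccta
HIST2H2AA3 at chr1:149842223-149842238, minus strand: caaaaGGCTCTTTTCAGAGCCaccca
HIST1H4I at chr6:27139654-27139669, plus strand: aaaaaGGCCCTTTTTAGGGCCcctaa
HIST2H4A at chr1:149833032-149833047, plus strand: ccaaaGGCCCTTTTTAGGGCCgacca
HIST1H2BD at chr6:26158587-26158602, plus strand: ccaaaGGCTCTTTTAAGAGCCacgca
HIST1H3E at chr6:26225596-26225611, plus strand: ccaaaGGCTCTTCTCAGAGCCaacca
H2AFX at chr11:119094898-119094913, minus strand: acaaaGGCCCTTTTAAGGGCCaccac
HIST3H2A, the replication-dependent gene with most reads, and HIST2H2AA3 have the form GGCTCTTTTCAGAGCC, which 18 replication-dependent genes share. The H4 genes HIST1H4I and HIST2H4A, with HIST2H4B, have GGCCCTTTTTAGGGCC, and 5 other H4 genes have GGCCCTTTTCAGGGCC. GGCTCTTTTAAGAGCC was found in 5 genes of H2B and H3, HIST1H2BD among them, GGCTCTTTTCAGGGCC in 3 genes and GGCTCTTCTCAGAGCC in HIST1H3E alone. H2AFX, the variant that is phosphorylated at DNA breaks, was the replacement gene with a match, 1044 bases before the end of its model. Of 19669 protein-coding genes in the annotation 162 (0.824%) have a match, and 33 of these carry a symbol described here.

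The table gives RPKM, which scales the reads of a gene by its length and by all reads assigned to listed genes. Positions are those of the table, which match GRCh38. Whole reads could be recovered from the values, 22366506 for WT and 23520828 for S435D, so that 1 read on a gene of 1 kb equals 0.0447 and 0.0425 RPKM. Below, values are given for the WT library first and the S435D library after it. With 1 library per construct no difference has a replicate check and no test was possible. Intervals are exact conditional binomial (Clopper-Pearson) 95% intervals on the recovered reads, and they cover counting error between these libraries only. The cell line label was read against markers. Of the mesenchymal markers, VIM stood at 116 and 113 RPKM, SPARC at 14.7 and 12.9, and ZEB1 at 5.98 and 6.34. CDH2 was lower, at 2.25 and 2.11 RPKM, as was FN1, at 1.16 and 1.17. ESR1 had 1 and 0 reads, PGR had 0 reads, and PTPRC and PECAM1, of immune and endothelial cells, had 0 reads. The epithelial keratins KRT8 (45.5 and 47.7 RPKM) and KRT18 (37.5 and 41.4) were also present. Of the other epithelial markers, EPCAM was at 2.48 and 2.11 RPKM, CDH1 at 0.651 and 0.798, and CLDN4 at 0.143 and 0.118. ERBB2 was at 10.6 and 10.05 RPKM. As in any bulk sample, fewer cells at a stage of the cell cycle and less RNA per cell cannot be told apart.

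Replacement variants held nearly all histone reads. Their sum was lower in the S435D library beyond counting error, whereas the sum of the replication-dependent genes was not separated from equality. The 16 replacement genes held 36021 reads with WT and 34595 with S435D, or 0.161% (0.159 to 0.163) and 0.147% (0.146 to 0.149) of assigned reads. The ratio of their summed RPKM, S435D over WT, was 0.912. The 71 replication-dependent genes together held 1113 and 1251 reads, or 0.00498% (0.00469 to 0.00528) and 0.00532% (0.00503 to 0.00562), with a ratio of summed RPKM of 1.09. The ratio of read shares was 0.913 (0.900 to 0.927) for the replacement class, below 1 by its counting interval, and 1.07 (0.985 to 1.16) for the replication-dependent class, whose interval held 1. Replacement reads outnumbered replication-dependent reads 32.4 to 1 with WT and 27.7 to 1 with S435D. These are reads not scaled by length, and many replacement models are longer. Summed RPKM, which scale by length, were 591 and 539 for the replacement class and 69.2 and 75.2 for the replication-dependent class. Whether poly(A) selection was used, which would leave out mRNAs that end at the stem-loop, is not known. Of all H1 reads the replacement genes held 98.3% and 97.9%, of H2A reads 97.0% and 96.6%, and of H3 reads 99.5% in both libraries, while all H4 reads came from replication-dependent genes because no replacement H4 symbol is in the set.

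**Figure D1:**
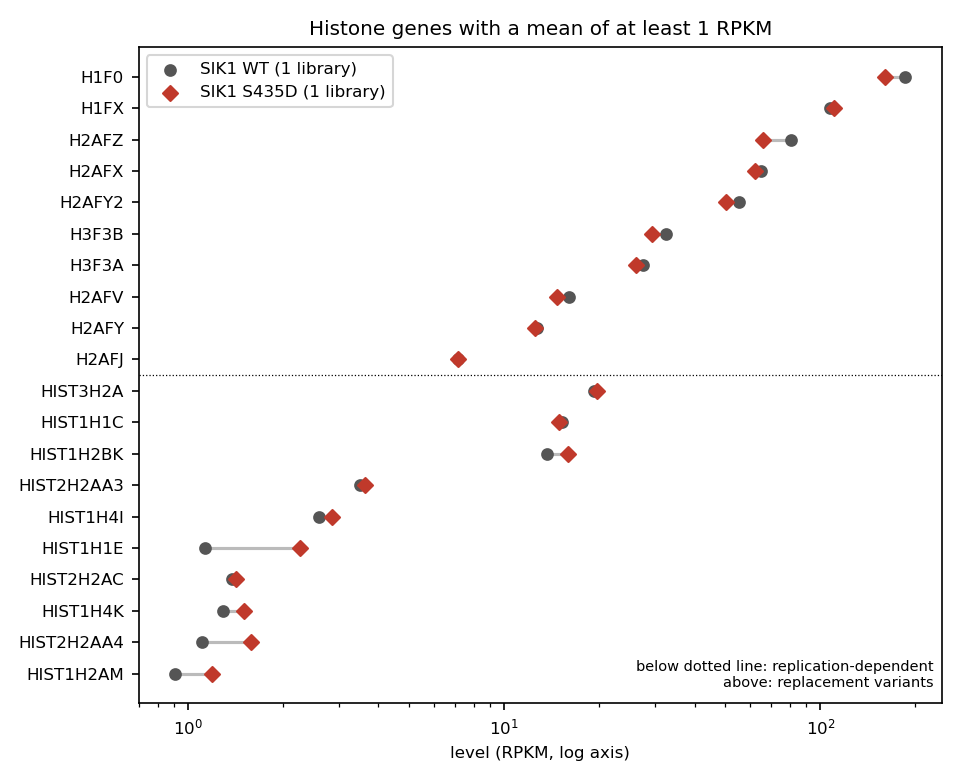
Level in RPKM (log axis) of the 20 histone genes that average 1 RPKM or more, in the WT library (grey circles) and the S435D library (red diamonds), 1 library each. The replacement variants above the dotted line reach 186 RPKM, the replication-dependent genes below it 19.7 RPKM, and the widest gap between the libraries is that of HIST1H1E.

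The counts of genes that differed were read against all genes of the table. A gene counted as expressed at a mean of at least 1 RPKM, and the log2 ratio was taken on log2(RPKM + 0.5), which understates differences of low genes. Of 13290 expressed genes, 4.43% were past 1.2-fold higher in the S435D library and 7.92% past 1.2-fold lower, and the median log2 ratio was -0.024. The log2 ratio was above 0 in 5706 of these expressed genes and below 0 in 7584. Among the 10 expressed replication-dependent genes 2 were past 1.2-fold higher (HIST1H1E and HIST2H2AA4) and 0 past 1.2-fold lower. In all, 9 of the 10 had a log2 ratio above 0 and HIST1H1C one below, and their median was 0.14, with a range from -0.026 to 0.76. Among the 10 expressed replacement genes 0 were past 1.2-fold higher and 1, H2AFZ, was past 1.2-fold lower. Of these, 8 had a ratio below 0 and 2 (H1FX and H2AFJ) above, and the median was -0.10, with a range from -0.30 to 0.046. No histone gene was past 2-fold in either direction on this scale, which 0.339% of expressed genes were upward and 0.504% downward.

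Counting intervals were read next. Of 17873 genes with at least 20 reads over both libraries, the interval of the ratio lay above 1 in 7.32% and below 1 in 12.5%. It lay below 1 in 5 of the 10 replacement genes with that many reads and above 1 in 0 of them. All 10 hold more than 1000 and at most 20000 reads, a range in which 19.7% of genes had an interval below 1 and 12.3% above. Of the 14 replication-dependent genes with at least 20 reads, 1 (HIST1H1E) had an interval above 1 and 0 below. That is a share of 7.14%, beside 7.32% over all genes with that many reads. Most of the 14, HIST1H1E included, hold 20 to 100 reads, a range in which 2.89% of genes had an interval above 1 and 5.49% below. The 10 expressed replication-dependent genes had as few as 19 reads over both libraries, so the lean of their ratios rests on wide intervals, as the plot of ratios by read number shows.

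**Figure D2:**
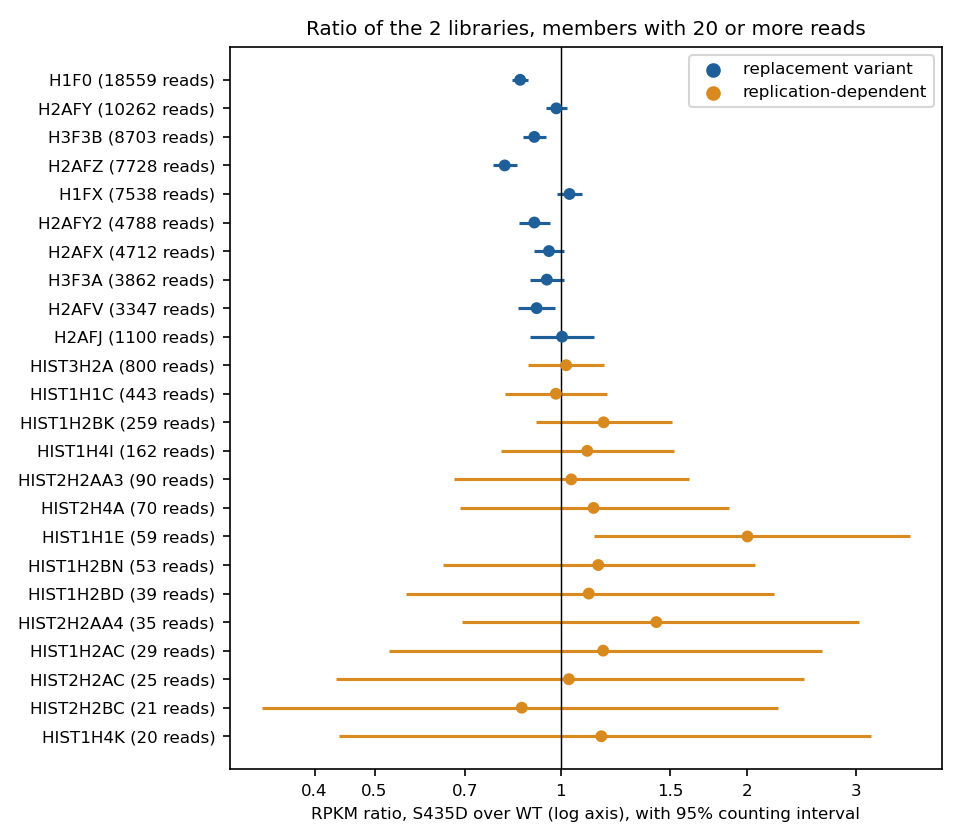
RPKM ratio, S435D over WT (log axis), with 95% counting intervals for the 24 histone genes with at least 20 reads, which are given in brackets. The intervals of H1F0, H3F3B, H2AFZ, H2AFY2 and H2AFV lie below 1, that of HIST1H1E lies above 1, and the remaining 18 hold 1.

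Of single histone genes, the linker histone gene H1F0 had the largest absolute difference in RPKM. H1F0 (chromosome 22, 37805093 to 37807436, plus strand), the H1 variant of differentiated and slowly dividing cells, was the most abundant histone gene, at 186 RPKM with WT and 159.8 RPKM with S435D. Its ratio was 0.859 (0.835 to 0.885), on 9749 and 8810 reads, and none of its 50-base stretches occurs in another annotated gene. H1FX (chromosome 3, 129314771 to 129316277, minus strand), a divergent H1 variant, stood at 107 and 111 RPKM, a ratio of 1.03 (0.987 to 1.08). H1FX did not share the lower level of H1F0, and the level of H1F0 over H1FX was 1.73 with WT and 1.44 with S435D. Exons of H1FX share 345 bases with the antisense transcript H1FX-AS1, which was at 34.7 and 35.3 RPKM (1.01, 0.962 to 1.07). Since the strand setting is not given in the sources used here, reads of this stretch cannot be told apart. The germ cell H1 genes H1FNT and H1FOO had 0 reads.

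The replication-dependent H1 genes were led by HIST1H1C (chromosome 6, 26055787 to 26056428, minus strand), a somatic subtype, with 218 reads (15.2 RPKM) with WT and 225 (14.9 RPKM) with S435D, a ratio of 0.981 (0.811 to 1.19). HIST1H1E (chromosome 6, 26156354 to 26157107, plus strand), another somatic subtype, had 19 reads (1.13 RPKM) and 40 reads (2.26 RPKM), a ratio of 2.002 (1.13 to 3.66). It was the histone gene with the highest ratio among those with at least 20 reads, and it shares no 50-base stretch with another gene. Among the 4009 genes with 20 to 100 reads, the class HIST1H1E belongs to, 2.89% had an interval above 1 and 5.49% one below. HIST1H1C exceeded HIST1H1E 13.5-fold with WT and 6.61-fold with S435D. HIST1H1D had 0 and 4 reads, and HIST1H1A, HIST1H1B and the testis gene HIST1H1T had 0 in both.

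H2A variants came next in abundance, and H2AFZ had the lowest ratio of the expressed histone genes. H2AFZ (chromosome 4, 99948086 to 99950388, minus strand) encodes H2A.Z, which marks nucleosomes at promoters, and it was at 81.0 RPKM (4170 reads) with WT and 65.7 RPKM (3558 reads) with S435D, a ratio of 0.811 (0.776 to 0.849). Its exons share 223 bases with the clone-named gene RP11-15B17.1 on the opposite strand, which was lower as well, at 46.7 and 39.0 RPKM (0.834, 0.779 to 0.893). The part of shared reads in either ratio was not tested. H2AFV, which encodes a second form of H2A.Z, was at 16.1 and 14.7 RPKM (0.914, 0.853 to 0.978), so H2AFZ exceeded it 5.04-fold with WT and 4.47-fold with S435D. Both H2A.Z genes were thus lower in the S435D library beyond counting error.

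The macroH2A genes, whose products carry a large extra domain and lie in silent chromatin, were unequal. H2AFY2 (chromosome 10, 70052796 to 70112280, plus strand) was at 55.4 and 50.2 RPKM (0.906, 0.856 to 0.959). H2AFY was at 12.7 and 12.5 RPKM (0.983, 0.945 to 1.02), over a model of 17730 bases of which 4968 are shared with C5orf66. H2AFY2 thus stood 4.35-fold and 4.01-fold above H2AFY per length. In reads the order was the reverse, with 2452 and 2336 for H2AFY2, on a model of 1980 bases, and 5046 and 5216 for H2AFY. H2AFX was at 65.1 and 62.2 RPKM (0.957, 0.903 to 1.01). H2AFJ, a variant that accumulates in senescent cells, was at 7.13 and 7.16 RPKM (1.004, 0.891 to 1.13), the closest to no difference in the class. The short H2A.B genes of the X chromosome, known from testis, had 2 and 2 reads (H2AFB1), 1 and 3 reads (H2AFB3) and 0 reads (H2AFB2).

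The replacement H3 protein is encoded by H3F3A and H3F3B, which give the same amino acid sequence. H3F3B (chromosome 17, 75776434 to 75785893, minus strand) was at 32.5 and 29.4 RPKM (0.906, 0.868 to 0.945), with 214 bases shared with UNK, a gene at 7.59 and 8.05 RPKM. H3F3A (chromosome 1, 226061851 to 226072001, plus strand) was at 27.5 and 26.1 RPKM (0.949, 0.890 to 1.01). H3F3A shares 11.7% of its 50-base stretches with H3F3AP4, a processed copy that was left out by its name but listed at 57.1 and 60.8 RPKM (525 and 588 reads). A further copy, H3F3AP6, had 120 and 171 reads (1.36, 1.07 to 1.73). With the reads of both copies added to H3F3A the ratio was 0.991 (0.939 to 1.05), closer to 1 than that of H3F3A alone, and both intervals held 1. H3F3C, a copy known from testis, had 6 and 3 reads.

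The lower sum of the replacement class came mainly from H1F0 and H2AFZ. These 2 genes together had a ratio of read shares of 0.845 (0.825 to 0.866), and the other 14 replacement genes one of 0.956 (0.939 to 0.974). The remainder was thus still below 1 by counting error, at a smaller distance, and the median over all expressed genes was also below 0.

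Replication-dependent reads were concentrated in few genes. HIST3H2A, HIST1H1C, HIST1H2BK and HIST1H4I held 71.4% of the class with WT and 69.5% with S435D. Of the 71 genes 18 had 0 reads in both libraries and 39 had 1 to 19 reads over both, and a count of 0 allows up to 3 reads. The HIST1 cluster on chromosome 6 has 51 of the genes with 576 and 665 reads, and 15 of the 18 genes at 0 lie in it. The 15 HIST2 genes on chromosome 1 held 140 and 168 reads, the 4 HIST3 genes 395 and 416, and HIST4H4 on chromosome 12 had 2 and 2. By subtype, H2A had most reads (506 and 559), followed by H1 (237 and 269), H2B (215 and 240) and H4 (121 and 149), while the 14 H3 genes together had 34 and 34. The ratios of read shares by subtype were 1.05 (0.930 to 1.19), 1.08 (0.903 to 1.29), 1.06 (0.879 to 1.28), 1.17 (0.915 to 1.501) and 0.951 (0.573 to 1.58) in that order, and every one of these intervals held 1.

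**Figure D3:**
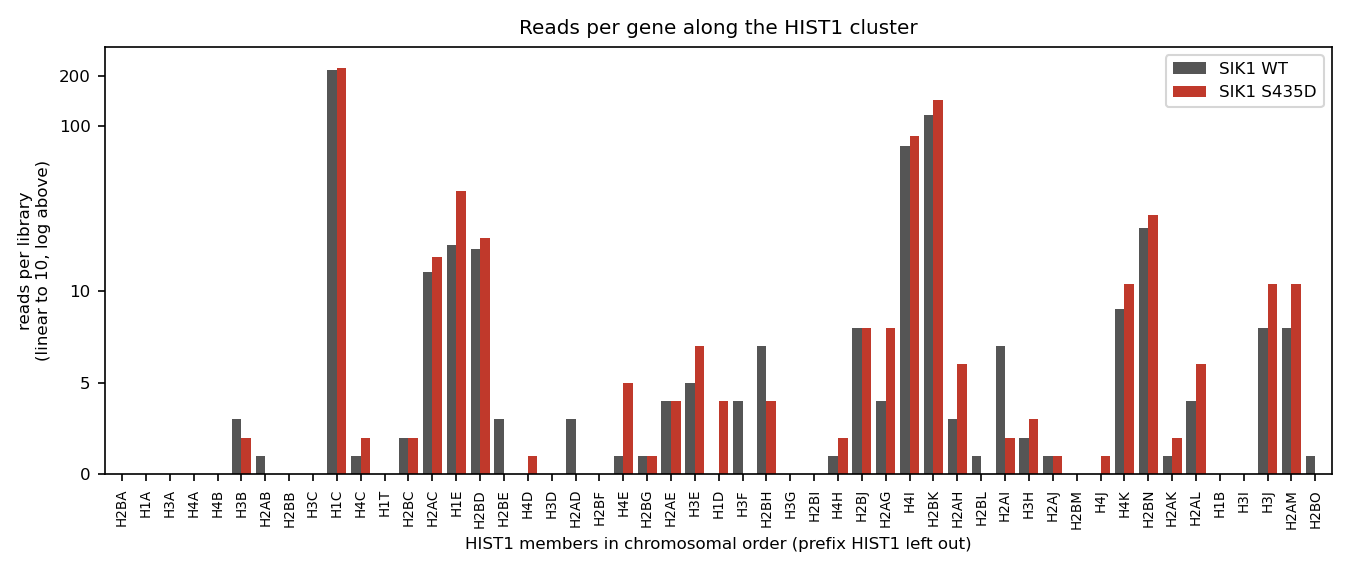
Recovered reads per gene of the 51 HIST1 genes in chromosomal order, WT library in grey and S435D library in red (axis linear to 10 reads and logarithmic above). Reads collect in HIST1H1C, HIST1H4I and HIST1H2BK, with 15 genes at 0 in both libraries.

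HIST3H2A (chromosome 1, 228456979 to 228457873, minus strand), an H2A gene outside the large cluster, had 386 reads (19.3 RPKM) with WT and 414 (19.7 RPKM) with S435D, a ratio of 1.02 (0.886 to 1.17). HIST1H2BK (chromosome 6, 27146418 to 27146798, minus strand), an H2B gene, had 13.6 and 15.96 RPKM, a ratio of 1.17 (0.911 to 1.51), and was thus not separated from 1 by counting error. Its deposited model holds the coding sequence alone, and 74.1% of its 50-base stretches occur in other genes, above all in H2BFS on chromosome 21, which is listed at 0 reads in both libraries. HIST1H4I (chromosome 6, 27138588 to 27139881, plus strand), an H4 gene, had 75 and 87 reads (2.59 and 2.86 RPKM), a ratio of 1.10 (0.801 to 1.52). These 4 leading genes, HIST1H1C included, had ratios between 0.981 and 1.17.

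The HIST2 cluster contains recent duplicates whose reads cannot be assigned safely. HIST2H2AA3, with 43 and 47 reads (3.50 and 3.64 RPKM; 1.04, 0.673 to 1.61), shares all of its 50-base stretches with HIST2H2AA4, which had 14 and 21 reads (1.11 and 1.58 RPKM; 1.43, 0.692 to 3.03). Pooled, this pair had 57 and 68 reads, a ratio of 1.13 (0.786 to 1.64), and reads of HIST2H2AA4, placed past 1.2-fold on its own, cannot be told apart from those of its copy. HIST2H4A had 32 and 38 reads (1.13, 0.687 to 1.87), and its copy HIST2H4B, with which it shares 97.5% of its stretches, is listed at 0. HIST2H3A and HIST2H3C, the H3 pair of this duplication, had 11 and 7 reads together. HIST2H2AC had 12 and 13 reads (1.38 and 1.42 RPKM; 1.03, 0.433 to 2.47), and HIST2H2BC, of a pseudogene type, 11 and 10.

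The remaining genes that were expressed or had at least 20 reads lie in the HIST1 cluster. HIST1H4K had 9 and 11 reads (1.29 and 1.499 RPKM; 1.16, 0.438 to 3.17) and is identical over its whole length to a stretch of HIST1H4J, which had 0 and 1. HIST1H2AM had 8 and 11 reads (0.910 and 1.19 RPKM; 1.31, 0.479 to 3.74), the same numbers as HIST1H3J, whose exons lie over it on the same strand. Whether the same reads were counted under both symbols was not tested. HIST1H2BN had 24 and 29 reads (1.15, 0.646 to 2.06) on a model of 5477 bases, HIST1H2BD 18 and 21 (1.11, 0.563 to 2.21), and HIST1H2AC 13 and 16 (1.17, 0.528 to 2.64). None of these intervals excluded 1.

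How far the deposited models reach past the stem-loop bears on which RNA each value can count. Of the 71 replication-dependent models 35 contain no stem-loop match, 28 of them because they hold the coding sequence alone. The end was read from the transcripts that hold the match. By these a further 11 end within 100 bases after the match, the canonical end, and 24 run more than 100 bases past it. HIST1H2BA could not be classed. HIST1H2BD is classed among the 11, but its deposited model spans 26158146 to 26171349 and so runs on past its match at 26158587 to 26158602. HIST1H1C, HIST1H2BK, HIST2H2AC, HIST1H4K and HIST1H2AM belong to the coding-only models, and HIST3H2A extends 390 bases and HIST1H4I 212 bases past the stem-loop. The median levels were 0.114 and 0.136 RPKM without a match. They were 0.0930 and 0.169 RPKM in the class with a canonical end, HIST1H2BD included, and 0.110 and 0.103 RPKM in the extended class. All 3 medians were low in both libraries, and reads within a model do not show where its RNA ends.

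Promoters were printed for HIST1H1E (interval above 1), H2AFZ (lowest ratio of the expressed histone genes) and HIST1H2BK and HIST3H2A, abundant genes of the replication-dependent class. No promoter was matched for H1F0, the most abundant histone gene. Each line holds the 250 bases before the RefSeq start (GRCh38.p14), 5′ to 3′ on the strand of the gene, with matches on either strand in capitals. The motifs searched were the CCAAT box bound by NF-Y, the octamer ATTTGCAT bound by POU2F1, the TATA box as TATAAA, and the box of H1 promoters as AAACACA.
HIST1H1E at chr6:26156079-26156328, plus strand: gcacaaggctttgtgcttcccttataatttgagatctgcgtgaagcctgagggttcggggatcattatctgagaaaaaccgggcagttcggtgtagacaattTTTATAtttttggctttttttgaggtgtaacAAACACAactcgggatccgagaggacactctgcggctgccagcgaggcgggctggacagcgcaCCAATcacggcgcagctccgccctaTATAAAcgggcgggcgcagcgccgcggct
HIST1H2BK at chr6:27146856-27147105, minus strand: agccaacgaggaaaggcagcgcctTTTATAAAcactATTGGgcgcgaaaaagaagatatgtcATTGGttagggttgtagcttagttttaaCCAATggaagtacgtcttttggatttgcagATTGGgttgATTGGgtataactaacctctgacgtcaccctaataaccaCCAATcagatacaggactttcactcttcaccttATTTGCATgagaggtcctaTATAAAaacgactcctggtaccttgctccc
HIST3H2A at chr1:228457874-228458123, minus strand: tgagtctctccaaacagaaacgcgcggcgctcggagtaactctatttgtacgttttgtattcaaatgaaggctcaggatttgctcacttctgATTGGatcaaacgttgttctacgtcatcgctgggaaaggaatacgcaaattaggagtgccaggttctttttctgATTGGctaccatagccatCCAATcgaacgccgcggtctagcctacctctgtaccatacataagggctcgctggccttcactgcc
H2AFZ at chr4:99950276-99950525, minus strand: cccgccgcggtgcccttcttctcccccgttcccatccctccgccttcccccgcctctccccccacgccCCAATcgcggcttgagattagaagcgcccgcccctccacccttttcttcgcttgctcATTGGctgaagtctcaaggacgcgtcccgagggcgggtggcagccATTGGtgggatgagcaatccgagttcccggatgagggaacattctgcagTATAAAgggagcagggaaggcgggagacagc
The RefSeq start of H2AFZ lies 113 bases inside the deposited gene model, and the window of HIST3H2A reaches into HIST3H2BB. In HIST1H2BK the capitals TTTATAAA are 2 overlapping matches to TATAAA, one on each strand.

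Over windows of 250 bases before to 50 bases after the start, matched for 75 of the 88 genes, CCAAT was found in 85.2% of 61 replication-dependent and 85.7% of 14 replacement promoters, against 34.6% of all 35116 promoters in the table. It was in every H1, H2A, H2B and H3 promoter of the replication-dependent class and in 1 of 10 H4 promoters. The octamer was in 14 of 18 H2B and 10 of 15 H2A promoters of the replication-dependent class and in 0 of its other 28. It was in 1 of 14 replacement promoters, that of H3F3B, and in 1.77% of all promoters. TATAAA was in 67.2% of replication-dependent and 28.6% of replacement promoters, against 11.5% of all. AAACACA was in 6 of 6 H1, 1 of 15 H2A and 2 of 12 H3 promoters of the replication-dependent class. It was in 0 of the H2B and H4 promoters, 1 of 14 replacement promoters and 5.64% of all. The promoters of HIST1H1E and HIST1H1C both held the H1 box and the CCAAT box and both lacked the octamer, while TATAAA was found in that of HIST1H1E and not in that of HIST1H1C.

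H2A and H2B genes often lie head to head and share the stretch between their starts. There were 12 such pairs in the set, with gaps of 218 to 330 bases, and in 6 of them a gene reached a mean of 1 RPKM. The H2A gene had the higher level, averaged over the libraries, in 10 pairs and the H2B gene in 2 (HIST1H2BK and HIST1H2BJ). Some of these orders rest on few reads, such as 3 and 0 for HIST1H2AD or 1 and 1 for HIST1H2AJ, each facing a gene at 0. The H2B genes HIST2H2BD and HIST2H2BC are of pseudogene types. Long models, such as those of HIST3H2BB (2364 bases) and HIST2H2BE (2194 bases), give a lower RPKM for the same reads. HIST3H2A, at 19.3 and 19.7 RPKM, faces HIST3H2BB, at 0.151 and 0.0360 RPKM, across 233 bases. HIST1H2BK, at 13.6 and 15.96 RPKM, faces HIST1H2AH, at 0.347 and 0.659 RPKM, across 330 bases. Genes on either side of a shared promoter thus had very unequal levels, in the same order in both libraries for these pairs.

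**Figure D4:**
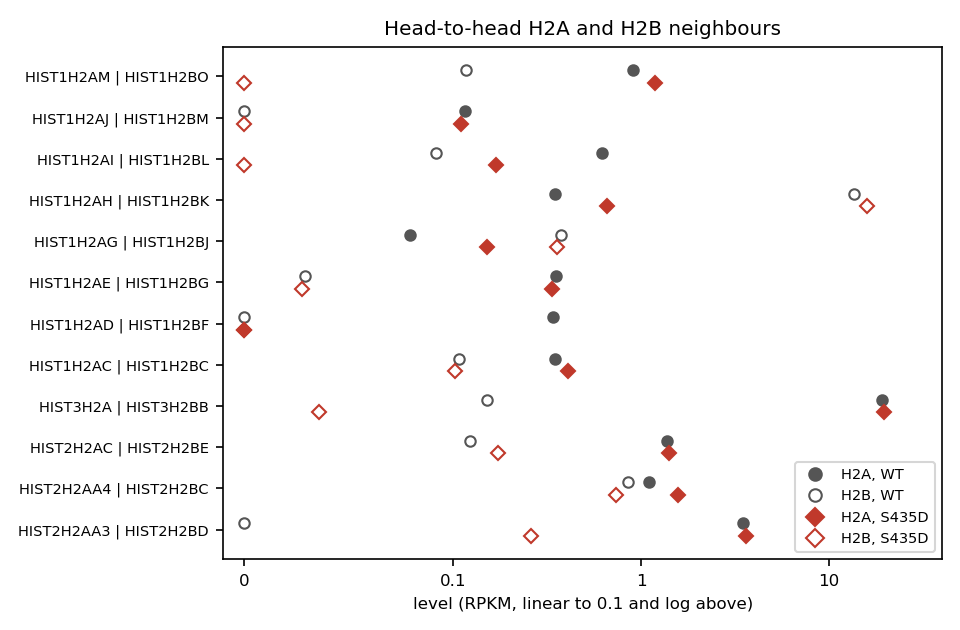
Level in RPKM (axis linear to 0.1 and logarithmic above) of the H2A gene (filled) and the H2B gene (open) in each of 12 head-to-head pairs, WT library in grey and S435D library in red. The pairs of HIST3H2A and of HIST1H2BK are the most unequal, with the H2A gene high in the former and the H2B gene in the latter.

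The genes that make, process and place histones were read from lists chosen with earlier results in view. Their counts above and below 0 stand beside 5706 above and 7584 below among all 13290 expressed genes. Of 25 listed genes of histone mRNA 3′ processing and decay 22 were expressed, 10 with a ratio above 0 and 12 below, with a median log2 ratio of -0.022. SLBP, the stem-loop binding protein, was at 65.6 and 60.9 RPKM (0.928, 0.881 to 0.977). The members farthest from 0 were LSM1, a subunit of the ring that starts histone mRNA decay (0.861, 0.794 to 0.934), SNRPD3, an Sm protein (0.908, 0.854 to 0.965), and MIF4GD, a partner of SLBP in translation (0.912, 0.790 to 1.05). Of 13 listed genes of histone gene transcription 10 were expressed, 2 above and 8 below 0, with a median of -0.058. NPAT, the coactivator of the histone locus body and a substrate of cyclin E with its kinase, had 120 and 142 reads (0.712 and 0.801 RPKM; 1.13, 0.876 to 1.45). CRAMP1 (0.846, 0.747 to 0.958), a factor for H1 gene transcription, CDC25A (0.876, 0.822 to 0.932), a phosphatase that activates cyclin-dependent kinases, and CCNE1 (0.903, 0.822 to 0.991), which encodes cyclin E, were the farthest from 0.

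Chaperones and S phase genes also stayed within 1.2-fold. Of 36 listed chaperone and deposition genes 33 were expressed, 16 above and 17 below 0, with a median of -0.017. DNAJC9, a chaperone of H3 and H4, had the lowest ratio (0.840, 0.789 to 0.893), and ATRX (1.196, 1.10 to 1.30) and EP400 (1.16, 1.08 to 1.25), remodellers that act on replacement H3 and H2A.Z, the highest. CHAF1A, of the complex that deposits replication-dependent H3, was at 121 and 119 RPKM, and its partner ASF1B at 13.9 and 14.2 RPKM. HIRA and DAXX, which deposit replacement H3, were at 21.7 and 20.5 RPKM and at 99.99 and 100.5 RPKM. All 18 listed S phase genes were expressed, 7 above and 11 below 0, with a median of -0.055, and GINS2 (0.866, 0.783 to 0.958), MCM6 (0.880, 0.831 to 0.933) and CDT1 (1.11, 1.05 to 1.18) were the farthest from 0. CENPA, the H3 of centromeres, which the symbol rule does not take in, was at 8.43 and 8.10 RPKM (0.961, 0.831 to 1.11). Intervals lay above and below 1 in 3 and 5 of 24 processing genes, 0 and 3 of 12 transcription genes, 7 and 11 of 36 chaperone genes and 3 and 7 of 18 S phase genes with at least 20 reads. The shares below 1 were 20.8%, 25%, 30.6% and 38.9%, and those above 1 were 12.5%, 0%, 19.4% and 16.7%. Over all genes with at least 20 reads they were 12.5% below and 7.32% above, and over genes with more than 1000 and at most 20000 reads 19.7% and 12.3%. Some listed genes exceed 20000 reads, such as the chaperones NCL, PTMA and NPM1 and the processing genes SNRPB and SRRT. Their intervals are narrow, and no share over all genes was taken for that range. The shares of these lists thus have no background fully matched by reads. No gene of these lists was past 1.2-fold.

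**Figure D5:**
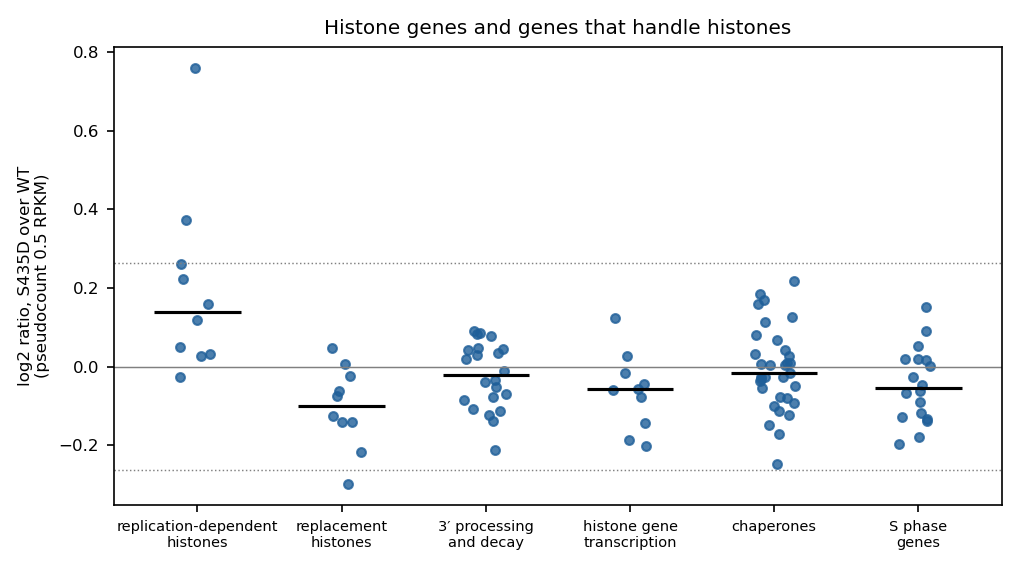
Log2 ratio, S435D over WT (pseudocount 0.5 RPKM), of each expressed gene in the histone classes and in the lists of genes that handle histones, with the median as a bar and dotted lines at 1.2-fold. HIST1H1E and HIST2H2AA4 lie above the upper line, H2AFZ below the lower, and the medians run from -0.10 for the replacement variants to 0.14 for the replication-dependent genes.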

How the data were processed

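RNA was sequenced in 1 BT549 library with SIK1 WT and 1 with SIK1 S435D. The authors deposited RPKM values of both libraries per gene and, per the file headers, its position, strand and Length (bases of merged exons, a unit of its own). The sources used here do not name the aligner, counting program, strand setting, genome build, library protocol or any poly(A) selection, and the molecule is labelled as total RNA. Poly(A) selection would leave out mRNAs that end at the stem-loop. RPKM times length was a whole multiple of 1 step per library for 100% of values (tolerance 0.01 reads), which gave the reads. No other sample column was present (0). How reads over several genes were counted is not known.

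Shares and ratios have exact 95% intervals, log2 ratios a pseudocount of 0.5 RPKM, with filters at a mean of 1 RPKM or 20 reads. With 1 library per group the rules of size (1.2-fold and 2-fold) describe these libraries. The interval procedure was run on simulated counts that held counting error alone, the error it assumes. Such a run checks the calculation and cannot show variation between libraries. All members with a mean of at least 1 RPKM or at least 20 reads were named, with the 3 members of each regulator list farthest from 0 and SLBP, NPAT, CENPA, ASF1B, CHAF1A, HIRA and DAXX; other genes were named after their values were seen. The members and lists were chosen with earlier results of these data known. All 88 symbols matched GENCODE 29 (GRCh38), 85 with the same start and end. Shared sequence was counted as 50-base stretches found in other GENCODE genes; the limit of 100 bases past the stem-loop was set after the models were seen. RefSeq promoters (GRCh38.p14) matched 75. Alternatives were other pseudocounts, filters, scalings and members. Tools were SciPy 1.17.1, Python 3.11.15, matplotlib 3.10.9, pandas 2.3.3 and numpy 2.4.6.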

Additional observations from a re-analysis of the deposited data

How the results depend on the processing

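Of 96 alternative values 83 were classed as the same as the value given and 13 as moved. Some that were classed as the same still differed in size. The median log2 ratio of the replication-dependent genes, given as 0.14, was 0.028 at a mean of at least 5 RPKM and 0.059 with no filter. Its highest alternative was 0.17, with a pseudocount of 0.1 RPKM. The ratio of summed replacement RPKM (0.912) was 0.927 both under a trimmed mean of log ratios and with the medians of expressed genes set equal, 0.936 without H1F0, the gene with most reads, and 0.895 without genes whose exons overlap another gene, an alternative chosen after seeing the data. These scalings remove a shift of -0.023 and -0.024 in log2 ratio, and among the 20 expressed histone genes the sign changed only for H2AFY, with medians set equal. With no filter on low values the genes past 1.2-fold were 12 higher and 7 lower in the replication-dependent class (2 and 0 as given) and 1 higher and 2 lower in the replacement class (0 and 1 as given). At a mean of at least 5 RPKM 0 replication-dependent genes were past 1.2-fold higher. Without genes that overlap another by span or by exon, 0 replacement genes were past 1.2-fold lower, since H2AFZ leaves. The number of replacement genes with an interval above 1 went from 0 to 1 under a trimmed mean of log ratios and under centring on the median. The medians of the processing and chaperone lists, -0.022 and -0.017, changed sign, to 0.00097 and 0.0068, under a trimmed mean of log ratios. Removal by span left no replication-dependent gene with a value, because symbols of small RNAs pool copies across a chromosome. No paired analysis was possible because each group holds 1 library, and for the same reason no replicate could be left out. Depth limits the replication-dependent genes most, of which 14 of 71 had at least 20 reads.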
